A study of Mus musculus with 20 samples.

Results

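Transcripts of the p53 pathway, of cell-cycle inhibitors and of senescence were examined in the quadriceps of old mice after a single injection of stem cell secretome or saline. The set held 10 genes, Trp53, Mdm2, Cdkn1a, Ccng1, Btg2, Gdf15, Cdkn1b, Cdkn2a, Cdkn2b and Cdkn2c, out of 55416 listed in the count table. They were chosen by name, and each was found once by its Ensembl identifier. All mice were male wild-type C57BL/6J mice aged 26 to 28 months that had been fasted for 4 h. Controls (n = 10) received 50 µL of 0.9% saline and secretome-treated mice (n = 10) received 50 µL of secretome diluted in saline. Each injection was into the quadriceps, which was taken 3 h later. The secretome is a cell-free product of the medium of partially differentiated human pluripotent stem cells and contains GDF-15 protein among its growth factors, whereas the reads counted here are from mouse transcripts. Each library was whole-muscle RNA of a separate mouse, so the nuclei of myofibers were measured together with those of resident and infiltrating cells.

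The p53 protein, encoded by Trp53, is a transcription factor that is kept low by the ubiquitin ligase Mdm2 and accumulates when DNA or ribosomes are damaged. It then raises the transcription of Cdkn1a, whose product p21 blocks cyclin-dependent kinases, and of Mdm2, Ccng1, Btg2 and Gdf15. Together with the p16 and p15 inhibitors encoded by Cdkn2a and Cdkn2b, p21 holds senescent cells out of the cell cycle, and in skeletal muscle the Cdkn1a transcript also rises in myofibers that lose their nerve supply or are immobilized, although these nuclei do not divide.

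The bases before the start site are shown for 4 genes of the pathway because they hold sequence of the kind that p53 binds, and for Btg2 because it holds a cAMP response element. Sequences are from RefSeq on GRCm38.p6, each is 100 bases long, is read 5′ to 3′ on the strand of the gene and ends before the transcript starts. Capitals mark p53 half-sites of 10 bases, or in Btg2 the element TGACGTCA.
Cdkn1a, chr17:29090869-29090968, plus strand: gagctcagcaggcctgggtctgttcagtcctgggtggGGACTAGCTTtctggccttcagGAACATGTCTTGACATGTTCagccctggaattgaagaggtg
Ccng1, chr11:40755397-40755496, minus strand: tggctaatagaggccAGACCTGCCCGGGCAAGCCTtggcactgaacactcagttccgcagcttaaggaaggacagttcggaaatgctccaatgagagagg
Mdm2, chr10:117710869-117710968, minus strand: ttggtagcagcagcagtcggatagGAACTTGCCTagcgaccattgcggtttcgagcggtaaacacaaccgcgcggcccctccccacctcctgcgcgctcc
Trp53, chr11:69580249-69580348, plus strand: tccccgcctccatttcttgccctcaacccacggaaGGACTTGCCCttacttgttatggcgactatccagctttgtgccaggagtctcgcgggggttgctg
Btg2, chr1:134079256-134079355, minus strand: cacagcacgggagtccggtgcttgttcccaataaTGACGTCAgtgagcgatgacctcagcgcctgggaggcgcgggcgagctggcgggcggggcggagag

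All 10 genes matched RefSeq, with 14 windows of 300 bases between them (250 before and 50 after a start site). A p53 half-site was found in 4 of the 14 windows, against 8.36% of all 32851 windows. A full site, meaning a pair of half-sites at most 13 bases apart with at most 1 letter off in all, was found in 1 of the Cdkn1a windows and in that of Ccng1, against 0.627% of all windows. In the Cdkn1a window shown in part above, the half-sites began 73 and 51 bases before its start. A further one, 1 letter off, followed directly at 41 bases. The other Cdkn1a window, at a start site farther downstream, held no p53 half-site. In Ccng1 a half-site that was 1 letter off began at 195 bases and was followed directly by one at 185 bases. The half-sites of Mdm2 and Trp53, at 186 and 75 bases, stood alone. TGACGTCA was found 166 bases before the start of Btg2 and 46 before that of Cdkn2b, against 1.79% of all windows. The same windows were searched on both strands for TGACG, which also lies within TGACGTCA (20.8% of all windows), GGGCGG (35.7%), TATAAA (13.6%), CACGTG (7.15%), TGAGTCA (5.20%), TGATGCAA (0.895%) and a serum response element core (0.0639%). These matches describe the letters of the windows and were not measured as bound.

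The libraries held 13286983 to 22987237 counts on genes. The 8 myofiber markers, among them Acta1 and Ckm, summed to between 63104 and 126881 CPM (counts normalized for library size by TMM). Libraries were numbered 1 to 10 in controls and 11 to 20 in secretome-treated mice, so that control replicate 1 is library 1 and secretome replicate 1 is library 11. The share of counts on Ttn, the gene of the giant sarcomere protein titin, was 7.02% to 11.03% in libraries 1 to 5, 16.4% to 21.1% in libraries 6 to 15 and 14.2% to 14.7% in libraries 16 to 20. Since only libraries 6 to 15 hold both treatments within a single range, each gene was compared over all 20 muscles and again within libraries 6 to 15 (n = 5 each). The ranges of Ttn share are not a stated batch. Libraries 1 to 5 and 16 to 20 each hold a single treatment, so range and treatment cannot be told apart there, and the number itself follows treatment in libraries 6 to 15 as well, with 6 to 10 all controls and 11 to 15 all secretome-treated.

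Levels differed widely among the 10 genes. Per kilobase of exon, Ccng1 was highest at 218 ± 41.1 CPM per kb in controls (mean ± SD, n = 10). Cdkn1a (13.7 ± 7.82), Btg2 (12.5 ± 8.25) and Mdm2 (11.4 ± 2.54) came next and did not differ from each other beyond their SDs. Cdkn1b (5.17 ± 0.827), Trp53 (4.99 ± 0.968) and Cdkn2c (3.44 ± 0.850) followed, also with overlapping SDs between neighbors. Cdkn2b (0.948 ± 0.312), Cdkn2a (0.634 ± 0.712) and Gdf15 (0.157 ± 0.133) were lowest. In secretome-treated muscle the order of Cdkn1a, Btg2 and Mdm2 turned to Btg2 (13.8 ± 9.10), Mdm2 (12.2 ± 0.720) and Cdkn1a (10.4 ± 3.73), again within their spread.

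**Figure D1:**
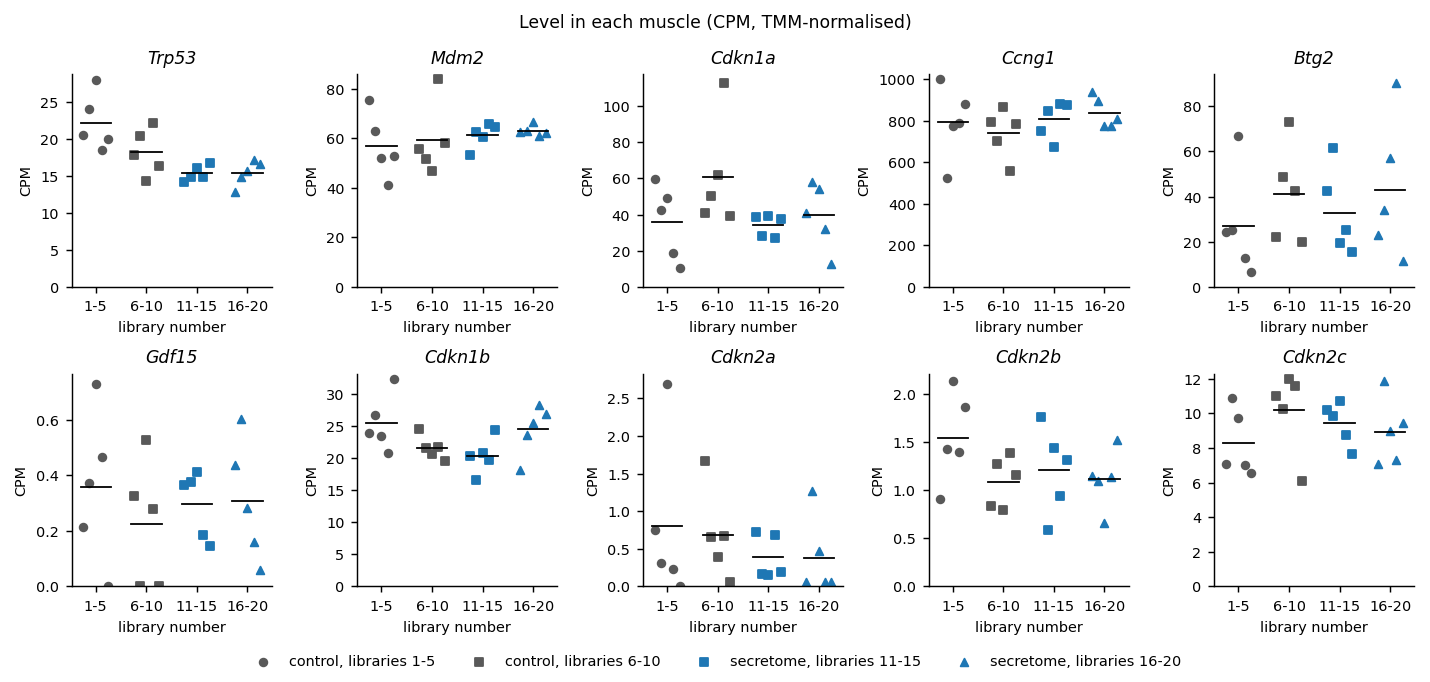
Level of each of the 10 genes in every muscle, in CPM from 0 on a linear axis, by range of library number. Points are muscles (gray for control, blue for secretome-treated), bars are means of 5 muscles, and the lower level of Trp53 in secretome-treated muscle and the single high Cdkn1a control at 113 CPM can be seen.

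Over all 20 muscles, 8 of the 10 genes had enough counts to pass edgeR's filter (filterByExpr), and Gdf15 and Cdkn2a did not. With edgeR (quasi-likelihood F-test, p adjusted after Benjamini and Hochberg over 14471 genes), none of the 8 differed by treatment at a 5% false discovery rate, and 0.00691% of all genes did. At an unadjusted p under 0.05 there was 1 of 8, Trp53, against 15.7% of all genes. DESeq2, which gave an adjusted p for all 10, called 1, again Trp53, against 1.18% of all genes. In libraries 6 to 15 alone, 9 genes (all but Gdf15) were tested and 0 passed, either in edgeR, where 0% of all genes passed, or in DESeq2, where 0.24% did. There, 1 of 9 had an unadjusted p under 0.05 in edgeR, Cdkn1a, against 9.95% of all genes.

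**Figure D2:**
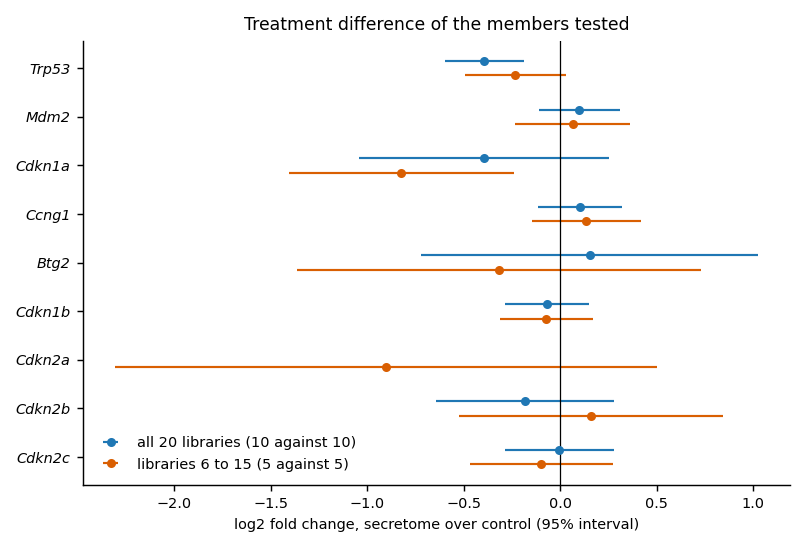
Log2 fold change of secretome-treated over control muscle with its 95% interval in edgeR, over all 20 libraries (blue) and within libraries 6 to 15 (orange). The interval of Trp53 over all libraries (-0.60 to -0.19) and that of Cdkn1a within libraries 6 to 15 (-1.41 to -0.24) lie below 0, and the others include 0.

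Trp53 itself was the gene of the set with the smallest p over all muscles. Its level was 14.3 to 28.0 CPM in controls (median 20.1) and 12.8 to 17.1 CPM in secretome-treated muscle (median 15.3). All 10 secretome-treated muscles were below the control median, which held for 3.39% of all genes tested, and 2 were below the lowest control, so the groups overlapped in their lower range. The means were 20.2 ± 3.92 and 15.4 ± 1.32 CPM (SD, n = 10 each). The fold was 0.761 (95% interval 0.660 to 0.877), a log2 fold change of -0.39 with a standard error of 0.0993 (edgeR p = 0.000587, adjusted p = 0.110). It ranked 76 among 14471 genes by p.

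DESeq2 gave Trp53 a log2 fold change of -0.38 and an adjusted p of 0.0326. With each muscle left out in turn, that call held in 11 of 20 fits, with adjusted p from 0.00467 to 0.0876. It was lost without control replicate 1, 2, 3 or 9, and without secretome replicate 1, 2, 4, 6 or 7. In edgeR no such fit passed (adjusted p 0.0612 to 0.234).

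Trp53 was also compared between the ranges of library number. Controls of libraries 1 to 5 had 20.5, 24.1, 28.0, 18.5 and 19.9 CPM, and controls of libraries 6 to 10 had 17.8, 20.3, 14.3, 22.1 and 16.3 CPM. These control ranges overlapped and differed by a log2 fold change of -0.29 (edgeR p = 0.0389, adjusted p = 0.222). Secretome-treated muscles had 14.2, 14.8, 15.98, 14.9 and 16.8 CPM in libraries 11 to 15, against 12.8, 14.8, 15.7, 17.1 and 16.6 CPM in libraries 16 to 20, with a fitted log2 fold change of -0.0044 between them. Within libraries 6 to 15 the treatment difference was -0.23 (95% interval -0.50 to 0.029, edgeR p = 0.0770, adjusted p = 0.542), and the levels of the treatments overlapped there. With the 3 ranges as a term over all libraries, it was -0.25 (edgeR p = 0.0741, adjusted p = 0.789). That fit also takes its treatment difference from libraries 6 to 15 alone, since the other ranges each hold a single treatment. The test of the difference between both sets of libraries gave 0.28 (95% interval -0.10 to 0.67, edgeR p = 0.142, adjusted p = 0.606), in a comparison in which 0 of 8 genes of the set and 0.0553% of all genes passed.

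Markers of other cells were summed in the same muscles. The 6 lymphocyte markers, among them Cd3e and Cd79a, summed to 0.396 to 7.28 CPM in controls and 0 to 0.912 CPM in secretome-treated muscle, with no marker at 0 in every library. None of the 6 had enough counts to be tested. The 5 fibroblast markers, among them Col1a1 and Pdgfra, summed to 652 to 932 CPM in controls 1 to 5 and 170 to 417 CPM in controls 6 to 10. In secretome-treated muscle they summed to 258 to 366 CPM in libraries 11 to 15 and 433 to 571 CPM in libraries 16 to 20, with no marker at 0 in every library. The 6 macrophage markers summed to 33.7 to 103 CPM in controls (median 56.8) and 25.5 to 84.0 CPM in secretome-treated muscle (median 35.7). Within libraries 6 to 15 their medians were 48.9 and 30.7 CPM, with ranges of 33.7 to 77.3 and 25.5 to 39.5 CPM that overlapped. The 5 endothelial markers summed to 109 to 199 and 109 to 177 CPM over all libraries, and to 115 to 199 (median 188) and 125 to 175 CPM (median 132) within libraries 6 to 15. All markers of macrophages and endothelium were tested and none was at 0 in every library. The part of any of these cell types in the differences of Trp53 and Cdkn1a was not tested, and in whole muscle fewer cells of a type and less RNA per cell cannot be told apart. Of the 75-base stretches of Trp53 exons, 1.09% also occur in its processed copy Trp53-ps, so a small part of its reads could be assigned to either.

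Mdm2, the ligase that marks p53 for degradation and is itself a p53 target, did not pass between treatments. Its level was 41.3 to 83.8 CPM in controls (median 54.2) and 53.4 to 66.5 CPM in secretome-treated muscle (median 62.5). Every secretome-treated muscle lay within the control range. The fold was 1.07 (95% interval 0.925 to 1.24, log2 fold change 0.098, standard error 0.102, edgeR p = 0.345, adjusted p = 0.657), and within libraries 6 to 15 it was 1.04 (0.851 to 1.28).

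The spread of Mdm2 between mice was smaller after secretome. The SD of its log2 CPM was 0.305 in controls and 0.0884 in secretome-treated muscle, a ratio of 0.290. A smaller spread after secretome was common, since 76.4% of all genes had a smaller SD in secretome-treated muscle, with a median ratio of 0.744. A ratio below that of Mdm2 was found for 1.30% of genes. Within ranges of library number the ratio was 0.281, and 0.967% of genes were below it. The ratios of Trp53 (0.460), Ccng1 (0.499), Cdkn2c (0.653) and Cdkn1a (0.656) were also under 0.744, and those of Btg2 (0.876), Cdkn2b (1.05) and Cdkn1b (1.18) were above it. These are descriptions, since the spreads were not tested against each other.

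**Figure D3:**
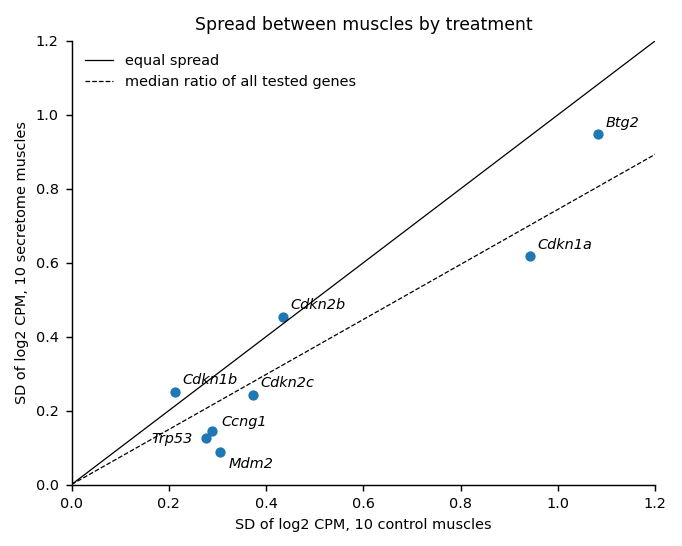
SD of log2 CPM over 10 control muscles (horizontal) and 10 secretome-treated muscles (vertical) for the 8 genes tested, with lines for equal spread and for the median ratio of all tested genes, 0.744. Mdm2 lies farthest under the dashed line in proportion (0.305 against 0.0884), and Btg2 and Cdkn1a are the most variable genes on both axes.

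Among the targets, Cdkn1a was among the most variable genes of the muscle. Its counts ran from 187 to 2034 per library, and 94.1% of tested genes had a smaller SD of log2 CPM over the 20 muscles. Controls had 10.6 to 113 CPM (median 45.6) and secretome-treated muscles 12.6 to 58.3 CPM (median 38.2). Every secretome-treated muscle was inside the control range, and 8 of 10 were below its median. Over all libraries the fold was 0.761 (95% interval 0.485 to 1.19, log2 fold change -0.39, standard error 0.311, edgeR p = 0.219, adjusted p = 0.543). Its size moved with the model, to -0.84 on the log2 scale with the 3 ranges as a term (edgeR p = 0.0643, adjusted p = 0.789), -0.27 with the replicate block (edgeR p = 0.378, adjusted p = 0.701) and -0.13 with limma voom (p = 0.679, adjusted p = 0.901).

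Within libraries 6 to 15, controls had 40.7, 50.3, 62.2, 113 and 39.45 CPM of Cdkn1a, and secretome-treated muscles had 38.6, 28.0, 39.36, 27.0 and 37.9 CPM. All 5 secretome-treated muscles were below all 5 controls, by a narrow margin between 39.36 and 39.45 CPM, which held for 1.09% of all genes tested. The fold was 0.565 (95% interval 0.377 to 0.847), a log2 fold change of -0.82 with a standard error of 0.268 (edgeR p = 0.00981, adjusted p = 0.449). It ranked 314 among 14469 genes by p. Control replicate 9, the muscle with 113 CPM, decided much of the size, since without it the log2 fold change was -0.48 (edgeR p = 0.00799, adjusted p = 0.492) within libraries 6 to 15 and -0.17 (adjusted p = 0.817) over all libraries.

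Outside this range of libraries, the treatments overlapped in Cdkn1a. Controls of libraries 1 to 5 had 59.8, 42.3, 49.0, 18.6 and 10.6 CPM, and secretome-treated muscles of libraries 16 to 20 had 41.1, 58.3, 54.3, 32.0 and 12.6 CPM. The difference in treatment effect between both sets of libraries was -0.98 on the log2 scale (95% interval -2.23 to 0.28, edgeR p = 0.121, adjusted p = 0.582), so it was not shown to differ. Controls 6 to 10 against controls 1 to 5 gave 0.76 (edgeR p = 0.0902, adjusted p = 0.336). In that comparison 0 of the 8 genes passed, against 5.55% of all genes, and between the secretome ranges 0 of 8 passed, against 0.221%. The satellite cell markers, such as Pax7, summed to 23.7 to 39.7 CPM in controls and 25.2 to 33.9 CPM in secretome-treated muscle, with the highest value in control replicate 9, no marker at 0 in every library and 4 of 5 tested. Their part in its Cdkn1a level was not tested. The 75-base stretches that Cdkn1a shares with other genes made up 1.41% of its exons, and 273 bases overlap a gene on the opposite strand, AC167363.2.

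Of the 13167 genes searched, the closest to Cdkn1a across muscles were Tnnt2 (r = 0.915), which encodes the cardiac and embryonic form of troponin T, Tmbim1 (0.905), a membrane protein of lysosomes, and Tiam2 (0.901), an exchange factor for the GTPase Rac. Pearson's r was taken over 20 muscles on log2 CPM after subtracting the mean of each treatment and library range. Gadd45a, another p53 target and a growth arrest gene, had rank 5 (0.899), and it is named here after its value was seen. For Mdm2 the closest were Zfp874b (0.894), Faf1 (0.838) and Kif5b (0.834), the last a kinesin motor. Without that subtraction, r with Mdm2 was 0.456 for Zfp874b, 0.706 for Faf1 and 0.790 for Kif5b. In the same way, r with Cdkn1a was 0.855 for Tnnt2, 0.897 for Tmbim1 and 0.883 for Tiam2. These likenesses are descriptions chosen as the highest of many and share library depth and composition.

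Ccng1 encodes cyclin G1, a p53 target that recruits a phosphatase to Mdm2, and it was the most abundant gene of the set. Its level was 523 to 1000.5 CPM in controls (median 785) and 673 to 939 CPM in secretome-treated muscle (median 828), all within the control range. The fold was 1.07 (95% interval 0.922 to 1.25, edgeR p = 0.352, adjusted p = 0.662), and 1.10 (0.902 to 1.33) within libraries 6 to 15. Changes above 1.33-fold upward were thus outside both intervals. Its closest genes were Rnf2 (r = 0.923), a subunit of the Polycomb repressive complex, Dnajc25 (0.920) and Tmem56 (0.917). Without subtracting the mean of each treatment and library range, these r were 0.914, 0.758 and 0.742.

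Btg2, an antiproliferative gene that is a p53 target and also an immediate early gene, varied most. Controls ranged from 6.39 to 73.0 CPM (median 24.7) and secretome-treated muscles from 11.3 to 90.1 CPM (median 29.6), and 98.1% of tested genes had a smaller SD. The groups overlapped over nearly their whole range. The fold was 1.11 with a 95% interval of 0.606 to 2.04 (log2 fold change 0.15, edgeR p = 0.721, adjusted p = 0.882), and 0.802 (0.388 to 1.66) within libraries 6 to 15, so its direction differed between the comparisons. Without secretome replicate 9, the muscle with 90.1 CPM, the log2 fold change over all libraries was -0.087. Its closest genes were Csrnp1 (r = 0.956), Junb (0.951) and Fos (0.949), all of them genes of the early response to stimulation. Without subtracting the mean of each treatment and library range, these r were 0.932, 0.932 and 0.938.

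Gdf15, the stress-induced cytokine of which the secretome carries the human protein, was near the limit of detection. Controls 1 to 10 had 4, 6, 13, 8, 0, 7, 0, 8, 5 and 0 counts, and secretome-treated muscles 1 to 10 had 6, 7, 8, 3, 3, 8, 11, 6, 3 and 1. Counts were thus 13 or fewer in every muscle, with 0 in control replicates 5, 7 and 10, where a count of 0 allows a level of up to 0.170, 0.153 and 0.174 CPM (3 counts, for counting error only). The sums were 51 and 56 counts. The means were 0.291 ± 0.247 and 0.303 ± 0.166 CPM (SD, n = 10 each), a difference of 0.0118 CPM (two-sided permutation test, p = 0.903), and 0.0707 CPM for the muscles of libraries 6 to 15 alone (exact permutation test, two-sided, p = 0.556). DESeq2 gave a log2 fold change of 0.088 over all libraries (adjusted p = 0.957). No difference was detected at this depth, and no likeness to other genes is given because its counts were too low.

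The inhibitors of the cyclin-dependent kinases come in 2 families. Of the family of p21, Cdkn1b (p27, which keeps cells quiescent) had 19.6 to 32.4 CPM in controls (median 22.6) and 16.6 to 28.2 CPM in secretome-treated muscle (median 22.2). The groups overlapped, and 2 secretome-treated muscles were below the lowest control. The fold was 0.953 (95% interval 0.820 to 1.11, log2 fold change -0.070, edgeR p = 0.510, adjusted p = 0.770) and 0.950 (0.804 to 1.12) within libraries 6 to 15.

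Of the INK4 family, which binds the kinases CDK4 and CDK6, Cdkn2c (p18) had 6.08 to 12.01 CPM in controls (median 10.0) and 7.06 to 11.9 CPM in secretome-treated muscle (median 9.24). All secretome-treated muscles were inside the control range, and the fold was 0.997 (95% interval 0.818 to 1.21, edgeR p = 0.971, adjusted p = 0.989). Cdkn2b (p15) had 12 to 38 counts in controls and 11 to 29 in secretome-treated muscle, or 0.792 to 2.13 and 0.590 to 1.76 CPM. These overlapped, with a fold of 0.879 (95% interval 0.639 to 1.21, log2 fold change -0.19, edgeR p = 0.416, adjusted p = 0.707) over all libraries and 1.12 (0.694 to 1.79) within libraries 6 to 15.

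Cdkn2a, which encodes p16 and, from another first exon, the p53 activator ARF, is the transcript most used as a mark of senescent cells. Its counts were 14, 5, 48, 4, 0, 36, 13, 6, 12 and 1 in controls 1 to 10 and 12, 3, 3, 11, 4, 1, 23, 10, 1 and 1 in secretome-treated muscles 1 to 10. The highest values, 48, 36 and 23 counts, came from control replicates 3 and 6 and secretome replicate 7, and the groups overlapped. Control replicate 5 had 0 counts, which allows up to 0.170 CPM. The sums were 139 and 69 counts and the means 0.743 ± 0.835 and 0.382 ± 0.402 CPM (SD, n = 10 each), a difference of -0.36 CPM (two-sided permutation test, p = 0.250). DESeq2 gave a log2 fold change of -0.95 over all libraries (p = 0.141, adjusted p = 0.489), from -1.37 without secretome replicate 7 (p = 0.0345, adjusted p = 0.293) to -0.47 without control replicate 3 (adjusted p = 0.827). For libraries 6 to 15 alone it was -0.31 CPM (exact permutation test, two-sided, p = 0.357), and there edgeR, whose filter it passed, gave a log2 fold change of -0.90 (95% interval -2.31 to 0.50, adjusted p = 0.643). Without control replicate 6 this was -0.26 (edgeR adjusted p = 0.917). The summed lymphocyte markers of control replicates 3 and 6 and secretome replicate 7 were 5.17, 7.28 and 0.714 CPM, and the neutrophil markers, such as S100a8, were 97.0, 7.37 and 58.6 CPM, within 1.36 to 97.0 CPM in controls and 1.46 to 109 CPM in secretome-treated muscle. None of the 6 neutrophil markers was at 0 in every library and 4 were tested. Control replicate 3, with the highest Cdkn2a count, also had the highest summed macrophage markers (103 CPM) and red blood cell markers (1373 CPM) of the 20 muscles. The macrophage markers summed to 50.6 CPM (rank 9) in control replicate 6 and 71.2 CPM (rank 5) in secretome replicate 7. In control replicate 4, with 4 Cdkn2a counts, they summed to 99.8 CPM (rank 2). The part of these cells in Cdkn2a was not tested. The counts do not separate p16 from ARF.

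Across the 20 muscles, the 8 genes tested gave 28 pairs, and 6 had an unadjusted p under 0.05 for Pearson's r on log2 CPM, with 0 past the 5% false discovery rate. The pair with the largest Pearson's r was Cdkn1a and Btg2, with r = 0.63 (permutation p = 0.00316, adjusted p = 0.0885) and Spearman's rho = 0.49 (permutation p = 0.0296, adjusted p = 0.277). Without control replicate 5 and secretome replicate 10, both low in Cdkn1a and farthest from its median, r was 0.33. It was 0.32 within libraries 6 to 15, which hold neither of these muscles. Cdkn1a and Mdm2 had r = 0.40 (permutation p = 0.0789, adjusted p = 0.276; rho = 0.24, permutation p = 0.300), 0.51 without control replicate 5 and secretome replicate 10, and 0.26 within libraries 6 to 15. Trp53 and Ccng1 had r = -0.48 (permutation p = 0.0309, adjusted p = 0.212; rho = -0.37, permutation p = 0.113), -0.39 without control replicates 2 and 3, and -0.73 within libraries 6 to 15. Trp53 and Mdm2 had r = 0.039 (permutation p = 0.871, adjusted p = 0.903; rho = 0.0015, permutation p = 0.997), 0.16 without the same 2 muscles and 0.47 within libraries 6 to 15. After the mean of each treatment and library range was subtracted, r was 0.61 for Cdkn1a and Btg2 (permutation p = 0.00439, adjusted p = 0.0916), 0.49 for Cdkn1a and Mdm2 (permutation p = 0.0301, adjusted p = 0.281), -0.59 for Trp53 and Ccng1 (permutation p = 0.00654, adjusted p = 0.0916) and 0.43 for Trp53 and Mdm2 (permutation p = 0.0584, adjusted p = 0.326). Again 0 of 28 pairs passed.

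**Figure D4:**
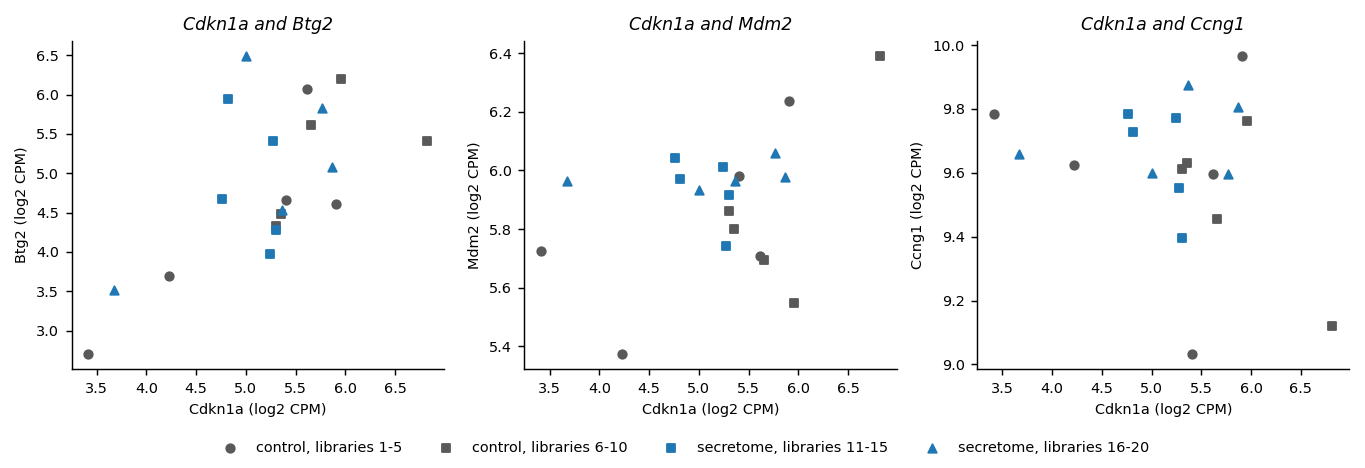
Cdkn1a against Btg2, Mdm2 and Ccng1 in 20 muscles, in log2 CPM (prior count 2), with controls in gray and secretome-treated muscles in blue and the symbol giving the range of library number. The muscles low in both Cdkn1a and Btg2 (controls 4 and 5 and secretome replicate 10) and the control with the highest Cdkn1a stand apart from the rest.

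The rest of the pathway was described from 9 lists of genes with known roles, of which 0 genes passed the 5% false discovery rate in edgeR between treatments, either over all libraries or within libraries 6 to 15. Of 34 other p53 targets, 30 were tested over all libraries, with 1 higher and 4 lower at an unadjusted p under 0.05, where 6.52% of all genes were higher and 9.21% lower. Their median log2 fold change was -0.071, against -0.035 for all genes. Rrm2b, a ribonucleotide reductase subunit for DNA repair, had 23.2 ± 5.21 CPM in controls and 28.7 ± 4.16 after secretome (log2 fold change 0.31, edgeR p = 0.0179, adjusted p = 0.237), and Pmm1, a phosphomannomutase, had 8.63 ± 2.45 and 6.90 ± 1.19 CPM (log2 fold change -0.32, edgeR p = 0.0316, adjusted p = 0.275). Of the 30 targets tested within libraries 6 to 15, 3 were higher and 1 lower at an unadjusted p under 0.05. Of all genes, 5.02% were higher and 4.92% lower there. The median of the targets was -0.074, against -0.014 for all genes.

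Of 16 regulators and relatives of p53, 14 were tested, with 4 higher and 0 lower at an unadjusted p under 0.05 (6.52% and 9.21% of all genes) and a median log2 fold change of 0.13. Of the 14, 4 had negative fold changes over all libraries, as 55.9% of all genes did, and 1 within libraries 6 to 15 (52.1% of all genes), where 2 were higher at an unadjusted p under 0.05 (5.02% of all genes) and the median was 0.13. Hipk2, a kinase that activates p53, had 157 to 277 CPM in controls (median 189) and 194 to 392 CPM in secretome-treated muscle (median 235). All 10 secretome-treated muscles were above the control median (true of 4.17% of all genes), and the groups overlapped. On the log2 scale the difference was 0.36 ± 0.132 (SE, edgeR p = 0.0131, adjusted p = 0.213) and 0.21 (edgeR p = 0.207) within libraries 6 to 15. Usp7, which removes ubiquitin from p53 and Mdm2, had 91.3 ± 18.1 and 108 ± 9.13 CPM (log2 fold change 0.24, edgeR p = 0.0292, adjusted p = 0.270). Mdm4, the partner of Mdm2, had a log2 fold change of -0.025 (edgeR adjusted p = 0.917), and it is named here for its role.

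Of 14 other cell-cycle inhibitors, 13 were tested (median log2 fold change -0.050). At an unadjusted p under 0.05, 0 were higher and 1 lower, against 6.52% and 9.21% of all genes. That one was Cables1, which links cyclin-dependent kinases to their inhibiting kinases, with 2.73 ± 0.793 and 2.01 ± 0.573 CPM (log2 fold change -0.44, edgeR p = 0.0318, adjusted p = 0.275). Cdkn1c (p57, the remaining gene of the p21 family) had 17.01 ± 6.19 and 13.8 ± 3.44 CPM (-0.30, edgeR p = 0.131, adjusted p = 0.444).

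Of the 10 cyclins and kinases that the inhibitors bind, 7 were tested (median -0.14). At an unadjusted p under 0.05, 0 were higher and 2 lower, against 6.52% and 9.21% of all genes. Ccnd2, a D-type cyclin that drives entry into S phase, had 11.4 to 21.2 CPM in controls (median 13.6) and 9.32 to 13.02 CPM in secretome-treated muscle (median 11.1). All 10 secretome-treated muscles were below the control median, true of 3.39% of all genes tested. The difference was -0.44 on the log2 scale (SE 0.118, edgeR p = 0.00115, adjusted p = 0.136) and -0.40 (edgeR p = 0.0167, adjusted p = 0.452) within libraries 6 to 15. Its relative Ccnd3 had 12.996 ± 4.08 and 10.1 ± 1.19 CPM (-0.37, edgeR p = 0.0145, adjusted p = 0.222), and -0.16 within libraries 6 to 15.

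Proliferation genes were low in this muscle, and 12 of 22 were tested. All 12 had negative fold changes over all libraries, as 55.9% of all genes did. At an unadjusted p under 0.05, 4 were lower (9.21% of all genes), and the median was -0.22. Within libraries 6 to 15, 11 of 12 were negative (52.1% of all genes), again with 4 lower at an unadjusted p under 0.05 (4.92% of all genes) and a median of -0.42. Mki67, which encodes the proliferation antigen Ki-67, had 0.330 to 5.89 CPM in controls (median 1.94) and 0.215 to 1.37 CPM in secretome-treated muscle (median 0.740). All secretome-treated muscles were below the control median, true of 3.39% of all genes tested, while the groups overlapped. The difference on the log2 scale was -1.67 (SE 0.408, edgeR p = 0.000439, adjusted p = 0.109), and -1.83 (edgeR p = 0.0130, adjusted p = 0.450) within libraries 6 to 15. Bub1b, a spindle checkpoint kinase, had 0.890 ± 0.333 and 0.610 ± 0.176 CPM (-0.54, edgeR p = 0.0381, adjusted p = 0.291). The lymphocyte marker sums given with Trp53 were also lower in range after secretome, and their part in these values was not tested.

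Of 31 secreted factors associated with senescence, 23 were tested, with a median of -0.23. At an unadjusted p under 0.05, 0 were higher and 4 lower, against 6.52% and 9.21% of all genes. Il6, Il1a, Tnf and 5 others were too low to test, with at most 42 counts in a library. Igfbp7, a binding protein of insulin-like growth factors, had 24.9 to 50.1 CPM in controls (median 35.3) and 24.1 to 33.0 CPM in secretome-treated muscle (median 24.7). All secretome-treated muscles were below its control median, true of 3.39% of all genes tested. On the log2 scale Igfbp7 differed by -0.44 (SE 0.112, edgeR p = 0.000577, adjusted p = 0.110), and -0.40 (edgeR p = 0.00898, adjusted p = 0.447) within libraries 6 to 15. Igfbp4, of the same family, had a log2 fold change of -0.94 (edgeR p = 0.00133, adjusted p = 0.136) over all libraries and -0.45 (edgeR p = 0.0458, adjusted p = 0.498) within libraries 6 to 15.

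Genes of this list differed between the control ranges. In controls 6 to 10 against controls 1 to 5, 6 of its 23 genes were lower past the 5% false discovery rate in edgeR and 0 were higher, against 5.55% of all genes in either direction. They were the proteases Mmp2 (-1.07 on the log2 scale), Mmp14 (-0.91) and Plau (-1.24), the protease inhibitor Timp2 (-0.88), Igfbp4 (-1.22) and the angiogenic factor Vegfa (-0.72), with edgeR adjusted p from 0.000631 to 0.0374. Fibroblast markers were higher in the same controls 1 to 5, as given with Trp53, and their part in these differences was not tested.

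Of 8 other senescence markers, 7 were found and 5 were tested. Glb1, which encodes the lysosomal beta-galactosidase behind the usual stain for senescent cells, had 2.57 ± 0.643 and 1.88 ± 0.285 CPM (log2 fold change -0.45, edgeR p = 0.0102, adjusted p = 0.205), but -0.073 (edgeR p = 0.766) within libraries 6 to 15. Hmga1, a chromatin protein of senescence-associated foci, had 19.1 ± 3.52 and 22.01 ± 2.12 CPM (0.21, edgeR p = 0.0436, adjusted p = 0.302). The median of the 5 was -0.039.

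All 17 immediate early genes were tested, with 0 at an unadjusted p under 0.05 over all libraries (15.7% of all genes) and a median of -0.040. The smallest p were those of Ier2 (-0.44, edgeR p = 0.183) and Klf2 (-0.25, edgeR p = 0.288). Of 12 genes of the integrated stress response, which also raises Gdf15, 10 were tested. At an unadjusted p under 0.05 there were 0, against 15.7% of all genes, and the median was -0.12. Trib3 had a log2 fold change of -0.56 (edgeR p = 0.0757) and Nupr1 of -0.55 (edgeR p = 0.117). Between the control ranges, Nupr1 (-1.44, edgeR adjusted p = 0.0226) and the stress factor Atf5 (-0.79, edgeR adjusted p = 0.0315) were lower and the p53 target Aen, an apoptosis nuclease, was higher (0.38, edgeR adjusted p = 0.0420) in controls 6 to 10.

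**Figure D5:**
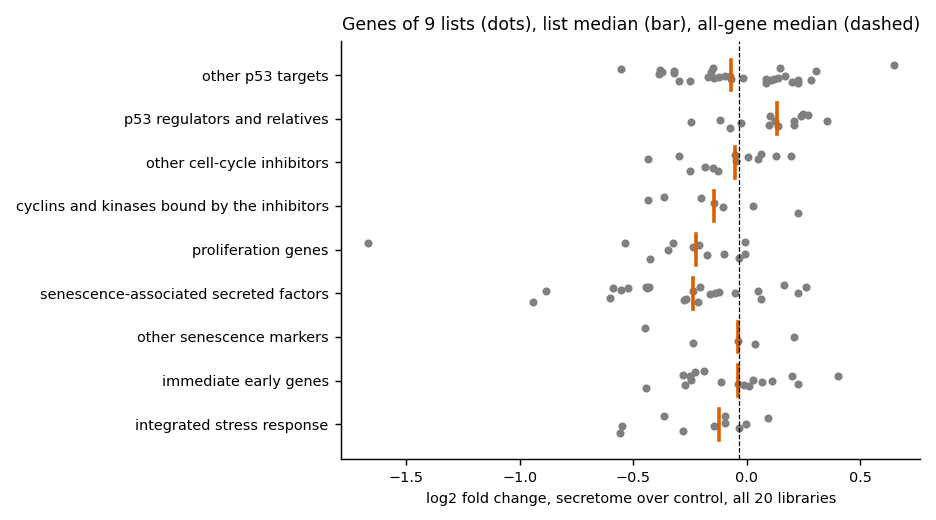
Log2 fold change of secretome-treated over control muscle over all 20 libraries for the tested genes of 9 lists (gray dots), with the median of each list (orange bar) and of all genes (dashed line, -0.035). The bar of the p53 regulators lies at 0.13 and those of the proliferation genes and the secreted factors at -0.22 and -0.23.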

How the data were processed

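The authors made stranded libraries from ribosomal RNA-depleted total RNA and sequenced them with paired-end reads. The deposited values are whole-number read counts per gene, without normalization. The submitters' processing notes name cutadapt 1.16, STAR 2.7.9a, featureCounts 1.6.3, DESeq2 1.34.0 and the build GRCm39. The annotation release and the strand and multiple-mapping settings are not given in the sources used here, so reads of overlapping or repeated sequence could be assigned to either gene. Groups came from the sample labels, and all 20 columns were matched. Libraries held 13286983 to 22987237 counts, so that 3 counts correspond to 0.139 to 0.198 CPM.

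Counts were filtered with filterByExpr (14471 of 55416 genes kept), scaled by TMM and tested with the robust quasi-likelihood F-test of edgeR 4.0.16 in R 4.3.3, with Benjamini-Hochberg adjustment over all genes tested. Libraries 6 to 15 were refitted alone (14469 genes). The comparisons between ranges of library number and of the treatment effect between them came from a fit of 4 cells. Gdf15 and Cdkn2a were compared by permutation tests of mean CPM with scipy 1.17.1 (100000 resamples, or all rearrangements of 5 against 5). Relations used log2 CPM with a prior count of 2. Symbols and exon lengths came from GENCODE M21 on GRCm38, which named 52083 of the 55416 identifiers. Alternatives were DESeq2 1.42.0, voom of limma 3.58.1 with quality weights, RLE scaling, no filter, library totals without Ttn, the 3 ranges as a term, the replicate number as a block, a 10% false discovery rate, and each muscle left out. DESeq2 with each muscle left out was added after the data were seen.

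The genes, the lists and the ranges of library number were chosen with earlier results of these data known, so none of the counts over them is independent evidence. Named were all 10 genes, and for each list the 2 tested genes with the smallest p over all libraries and any past the false discovery rate in a comparison described. For Cdkn1a, Mdm2, Ccng1 and Btg2, the 3 genes with the highest r among those with a mean of at least 1 CPM were also named. On simulated counts for the comparison of all libraries, run on 14309 genes, edgeR recovered 80.5% of 190 genes changed by a factor of 2, all with the right sign. On 14312 genes, it recovered 45.7% of 199 changed by a factor of 1.5. For libraries 6 to 15, on 14326 genes, it recovered 51.8% of 197 changed by a factor of 2. False calls in these runs were 8, 6 and 4. The counts were drawn around a single mean per gene, without differences between ranges of library number. These shares therefore need not hold for the genes of this set.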

Additional observations from a re-analysis of the deposited data

Results flagged for a closer look

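In each treatment group, the highest and the lowest muscle of the 8 genes tested were compared with their nearest neighbor by Dixon's criterion, on log2 CPM. Of 16 groups of 10 muscles, 2 held a value past its 95% critical value, and chance flags about 1 in 20. Cdkn1a in secretome replicate 10 had 12.6 CPM against 27.0 in the next muscle, a gap of 0.495 of the range of the group. Mdm2 in secretome replicate 1 had 53.4 CPM against 60.3 in the next muscle, a gap of 0.556 of the range. The Mdm2 level of secretome replicate 1 lay within the control range. The high Cdkn1a value of control replicate 9 did not pass the criterion, with a gap of 0.252. In the test of the treatment effect between libraries 6 to 15 and the other libraries, 0 of 8 genes passed the 5% false discovery rate in edgeR.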

How the results depend on the processing

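The number of genes of the set past the 5% false discovery rate over all libraries was 0 in edgeR and 1 in DESeq2, and with DESeq2 and each muscle left out it was 0 or 1. Of 918 recomputed fold changes, 874 kept their direction and side of the threshold, 43 changed direction, and 1, Trp53 in DESeq2, newly passed. The 43 belong to 7 genes whose fold changes had not passed the test. Over all libraries, Cdkn2c was -0.0050 and became 0.0098 in DESeq2, 0.0031 with RLE scaling, 0.012 without a filter, 0.069 with voom and 0.017 with the replicate block. With the 3 ranges as a term Cdkn2b became 0.15 and Btg2 -0.33. That fit takes its treatment difference from libraries 6 to 15 alone, where the main fit gave 0.16 for Cdkn2b and -0.32 for Btg2. Between the secretome ranges, Trp53 became 0.040 with voom.

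With each muscle left out, the log2 fold changes that turned ranged over all libraries from -0.087 to 0.35 for Btg2 and from -0.058 to 0.044 for Cdkn2c. Within libraries 6 to 15 they ranged from -0.0096 to 0.33 for Cdkn2b and from -0.0083 to 0.22 for Mdm2. Between the secretome ranges they ranged from -0.75 to 0.065 for Btg2, -0.093 to 0.010 for Ccng1, -0.047 to 0.30 for Cdkn2b, -0.066 to 0.0060 for Mdm2 and -0.065 to 0.036 for Trp53. Between the control ranges Mdm2 ranged from -0.10 to 0.18. For the difference of the treatment effect they ranged from -0.054 to 0.16 for Ccng1, -0.13 to 0.035 for Cdkn1b and -0.22 to 0.063 for Mdm2. The cause was not tested.

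The labels link same-numbered muscles of both treatments by nothing but the number. Deviations from the mean of each treatment were correlated above 0.1 in 2 of 10 such pairs (range -0.24 to 0.22). These deviations still hold differences between ranges of library number, so they cannot decide whether the muscles were paired. With the replicate block, 0 genes of the set and 0 genes in all passed over all libraries. Within libraries 6 to 15 no paired analysis was possible because the treatments share no number there. Over all genes, the number past the 5% false discovery rate depended on the tool, with 1 in edgeR, 213 in DESeq2 and 3 with voom over all libraries, 0, 37 and 0 within libraries 6 to 15, 803, 1196 and 1451 between the control ranges, 32, 144 and 269 between the secretome ranges, and 8, 180 and 130 for the difference of the treatment effect. Without a filter edgeR gave 465 between the control ranges, 11 within libraries 6 to 15 and 2 for the difference of the treatment effect, with RLE scaling it gave 2 between the secretome ranges, and with the 3 ranges as a term 0 over all libraries. With each muscle left out, DESeq2 gave 66 (without control replicate 3) to 480 (without control replicate 10) over all libraries. In edgeR it was 0 to 15 over all libraries (15 without control replicate 5), 0 to 2 within libraries 6 to 15 (2 without control replicate 8), 476 to 1012 between the control ranges (without control replicates 8 and 2), 1 to 56 between the secretome ranges (56 without control replicate 2) and 1 to 9 for the difference of the treatment effect (9 without control replicate 1). Depth limits Gdf15 and Cdkn2a, with at most 13 and 48 counts in a muscle. The range of Ttn share and treatment cannot be told apart outside libraries 6 to 15, and the number of a library follows treatment in all of them.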
